A study of Mus musculus with 34 samples.

Results

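The genes described here are 35 mouse genes of fatty acid oxidation and ketone body metabolism, chosen by name from the annotation of the array files, out of 22341 genes measured. They were chosen with earlier results of these data known. By the compartment in which their enzymes work, 18 are mitochondrial, 9 peroxisomal and 2 found in both, and 6 have other roles (a nuclear receptor, a fatty acid binding protein and their like). Each gene was read at its brightest probe, and each value is log2 of the liver or tumor sample (Cy3) over a pooled liver reference from C57BL/6 mice of both sexes (Cy5) on Agilent 2-colour arrays, so a value of 0 means the level of the reference pool. Transgenes for c-Myc, for TGFα or for the pair of them were carried by all mice except the controls, and giving doxycycline turned them off. The groups were 7 Myc tumors, 3 livers each after 4 and 12 weeks off Myc, 3 TGFα/Myc tumors, 3 livers each after 4 and 12 weeks off both transgenes, 3 TGFα tumors, and 3 livers each after 4 and 12 weeks off TGFα. They were set against 3 normal control livers with no transgene, and tumors and controls had 0 weeks of doxycycline. Tumors were single tumors of individual mice, while the samples with a transgene switched off were livers, so tissue and loss of the transgene cannot be told apart. The promoter driving each transgene, the animals' age and their sex are not stated in the labels. These call the samples biological replicates but tie none to a named animal, so the p-values measure the spread between these samples. Some groups lay on 1 slide or scan day, which the main fit did not take into account.

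The liver burns fatty acids in 2 places. Mitochondria take up activated long-chain fatty acids through the carnitine shuttle and shorten them in repeated rounds of dehydrogenation, hydration, dehydrogenation and thiolysis, passing electrons to the respiratory chain and, in fasting, turning the acetyl-CoA into ketone bodies. Peroxisomes shorten very long and branched chains and bile acid precursors first, with their own oxidases, bifunctional enzymes and thiolases, and hand the products on. PPARα, a nuclear receptor activated by fatty acids, switches on many genes of both routes in hepatocytes. In tissue samples such as these, fewer hepatocytes and less RNA per hepatocyte cannot be told apart.

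PPARα acts at direct repeats of the letters AGGTCA spaced by 1 base, so the windows upstream of the genes were searched for AGGNCANAGGNCA, for the single AGGTCA, which can overlap the longer motif, and for CACGTG, the E-box that Myc can bind, on both strands. RefSeq (GRCm38.p6) held a window of 250 bases before to 50 after the start for 30 of the 35 genes. The longer motif was found in 1 of these (Fabp1), or 3.33%, against 122 of 27025 promoters (0.451%). AGGTCA was found in 7 of 30 (Acadm, Acadvl, Acot3, Acot4, Cpt1a, Echs1 and Fabp1), or 23.3%, against 18.1% of all promoters, and CACGTG in 1 of 30 (Acot4), against 8.09%. The 250 bases before the start are shown for the 2 genes lowered most in the Myc tumors, Fabp1 at chr6:71199629-71199878 on the plus strand and Pex11a at chr7:79743132-79743381 on the minus strand, and for a mitochondrial dehydrogenase gene, Acadvl at chr11:70015429-70015678 on the minus strand. Each is written 5′ to 3′ along its gene, and capitals mark the motif: the longer one, read on the opposite strand, with its first base 67 before the Fabp1 start, and AGGTCA with its first base 87 before the Acadvl start. Pex11a has none of the 3 motifs in its window.
Fabp1: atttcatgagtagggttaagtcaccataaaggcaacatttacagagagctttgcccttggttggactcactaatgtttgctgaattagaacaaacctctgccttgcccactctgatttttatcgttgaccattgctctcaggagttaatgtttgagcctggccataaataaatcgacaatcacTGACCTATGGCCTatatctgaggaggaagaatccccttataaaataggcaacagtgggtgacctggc
Acadvl: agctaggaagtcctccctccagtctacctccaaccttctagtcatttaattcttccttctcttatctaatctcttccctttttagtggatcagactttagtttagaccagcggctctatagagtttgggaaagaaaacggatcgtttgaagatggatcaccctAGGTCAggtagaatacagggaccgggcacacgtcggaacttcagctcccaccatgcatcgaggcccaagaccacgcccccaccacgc
Pex11a: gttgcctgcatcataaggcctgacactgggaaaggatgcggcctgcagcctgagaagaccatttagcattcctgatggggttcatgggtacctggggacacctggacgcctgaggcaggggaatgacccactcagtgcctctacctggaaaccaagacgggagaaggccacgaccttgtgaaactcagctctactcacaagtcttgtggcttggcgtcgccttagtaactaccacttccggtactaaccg
These matches describe letters in the windows and say nothing of binding in these livers.

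All 35 genes were found on the arrays, 34 of them well above background in the sample channel on every array and Acot3 on 31 of 34. There were 34 arrays on 16 slides and 12 scan days, and days with Myc tumors 2 to 7 held no other group. These 6 arrays were also the ones read on the second of 2 scanners, most with another extraction protocol, so in comparisons with Myc tumors only Myc tumor 1 shares a scanner with the other group. The 3 arrays off both transgenes for 12 weeks lay on 1 slide, as did the 3 off TGFα for 12 weeks. The 3 off Myc for 4 weeks shared 1 scan day. In these groups the spread between samples is one within a slide or day. The 3 arrays of slide 5 (replicate 1 of TGFα off 4 weeks and TGFα tumors 2 and 3) had another reference profile and were kept out of every test, which left 31 arrays. On the array labelled TGFα tumor 1, both Myc probes that respond to the transgene were raised (3.28 and 3.55), as in the Myc tumors, where their medians were 5.16 and 3.71, while the controls lay between -1.07 and 0.50. Both mouse Tgfa probes stood at -0.48 to 0.03 in TGFα/Myc tumors, against -0.72 to 0.28 in controls, and whether they detect the transgene was not tested. Myc tumor 5 (1.04 and 0.10) and TGFα/Myc tumor 3 (0.83 and 0.07) were low at both, so results were also computed without them and without TGFα/Myc off 4 weeks replicate 3, a choice made after the data were seen. Control 1 stood apart from controls 2 and 3 at several genes named below, and its score of Y-linked genes less Xist was -3.28, against 5.25 and 4.58. Negative scores were not confined to control 1, and the mix was unequal between groups. The score ran from -1.59 to 6.41 in Myc tumors, from -1.69 to 3.38 in TGFα/Myc tumors and from -3.47 to 1.00 after 12 weeks off Myc. Of 13 hepatocyte markers 12 were measured. Their mean level was -2.84 to -0.45 in Myc tumors and -1.19 to 0.02 in TGFα/Myc tumors, against -0.03 to 0.19 in controls.

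**Figure D1:**
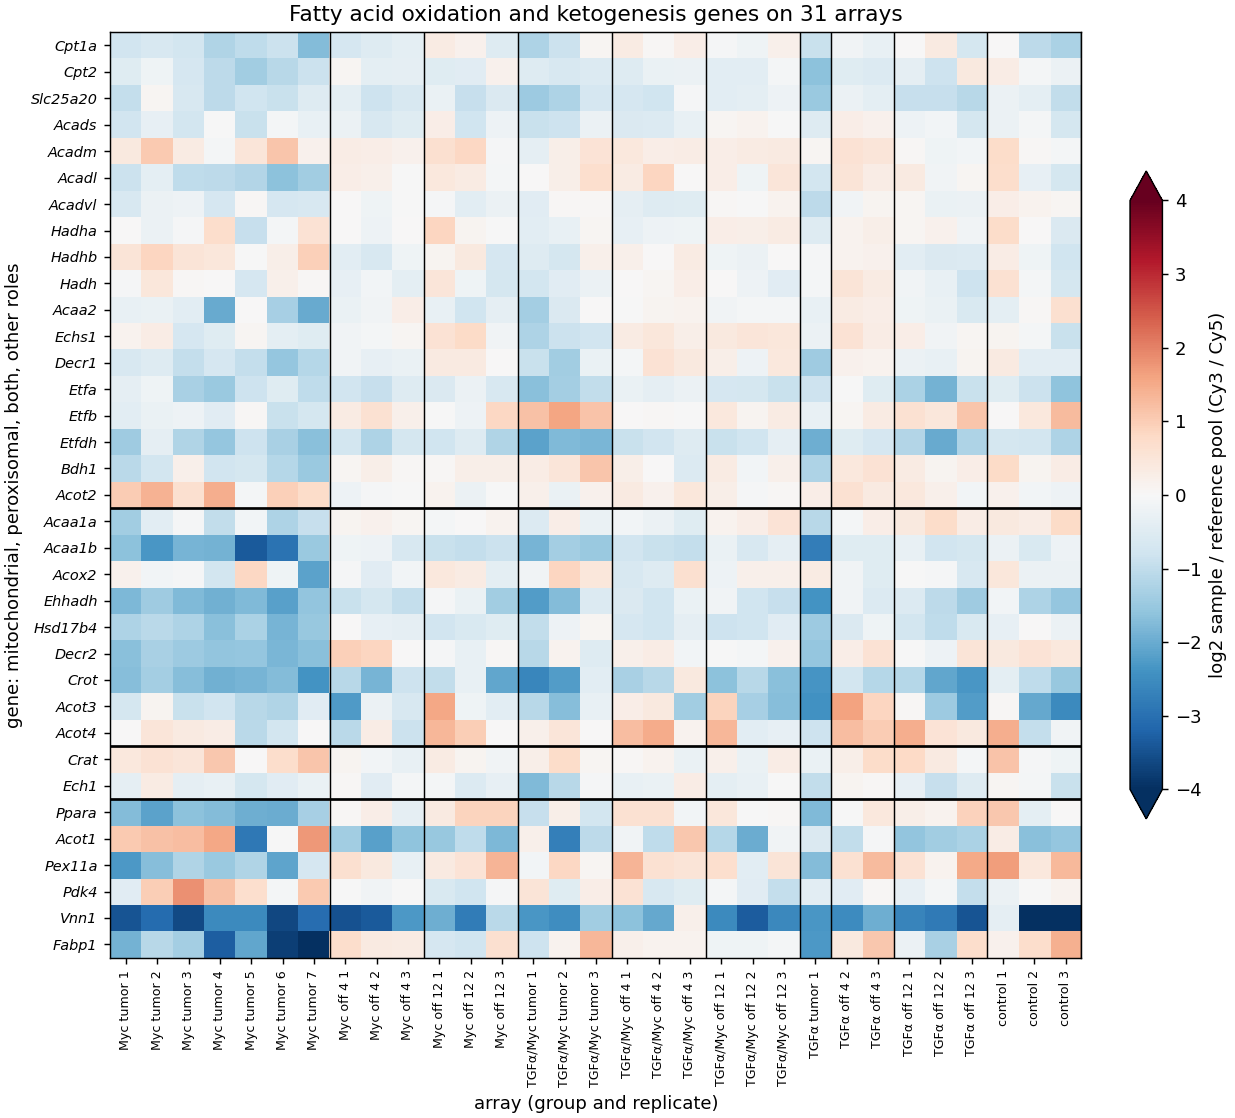
Value of each of the 35 genes (lines, grouped by compartment) on each of the 31 arrays (columns, grouped by sample group), as log2 of sample over reference, with colours clipped at 4 in either direction. The 7 Myc tumors and the array labelled TGFα tumor 1 are low for Ppara, Pex11a, Fabp1, Acaa1b and Decr2, and the livers with a transgene switched off lie nearer the controls.

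Myc tumors were compared with control livers to ask which steps of fatty acid oxidation differ in end-stage tumors. Of the 35 genes, 14 fell and 2 rose (limma, Benjamini-Hochberg adjusted over all genes), where 16.5% of all genes tested fell and 18.3% rose. The median of the 35 log2 differences was -0.29 and that of all genes -0.01. The falls were deepest for Fabp1, Pex11a, Decr2, Ppara and Acaa1b, genes of fatty acid binding, of peroxisomes and of their regulation. Of the 35 genes, 9 had no Myc tumor as high as any control, a pattern seen downwards in 10.5% of all genes, and these 9 were among the 14 that fell.

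Fabp1 encodes the abundant fatty acid binding protein of the hepatocyte cytosol. It lay between -4.64 and -1.11 in the 7 Myc tumors, with a median of -2.08, against 0.16, 0.69 and 1.42 in the 3 controls. No tumor reached a control, and the tumors spread over more than 3 units while tumors 4, 6 and 7 were the lowest. The log2 difference was -3.35 (SE 0.60, 10.2-fold lower, limma adjusted p = 0.000163). This spot was saturated in the reference channel on 4 of 7 Myc tumor arrays and 2 of 3 control arrays. From the sample channel alone the difference was -2.49 (adjusted p = 0.0455).

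Pex11a, which encodes a membrane protein of peroxisome division, lay between -2.31 and -0.67 in the Myc tumors (median -1.49), against 0.42, 1.29 and 1.68 in the controls. The difference was -2.65 (SE 0.37, 6.29-fold lower, limma adjusted p = 1.25e-05). Ppara itself lay between -2.15 and -1.32 (median -1.74), against -0.40, 0.03 and 1.07 in the controls, and the difference was -2.02 (SE 0.28, 4.07-fold lower, adjusted p = 9.68e-06). For both genes every tumor was below every control. The 7 tumors lay closer together for Ppara (SD 0.27) than the 3 controls did (SD 0.76).

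Among the peroxisomal enzymes 4 of 9 fell and none rose. Decr2, the peroxisomal dienoyl-CoA reductase needed for polyunsaturated chains, varied little among the tumors, at -1.84 to -1.30 (median -1.59), against 0.38, 0.41 and 0.56 in the controls. Its difference was -2.03 (SE 0.21, 4.09-fold lower, limma adjusted p = 3.92e-07). Acaa1b, a peroxisomal thiolase, lay at -3.35 to -1.49 (median -1.89), against -0.60, -0.25 and -0.19, a difference of -1.87 (SE 0.27, adjusted p = 1.96e-05). Its paralog Acaa1a lay at -1.38 to -0.05 (median -0.93), against 0.31, 0.38 and 0.76, a difference of -1.22 (SE 0.23, adjusted p = 0.000335). Hsd17b4, the bifunctional enzyme that also handles bile acid precursors, lay at -1.86 to -1.07 (median -1.26), against -0.32, -0.24 and 0.00, a difference of -1.23 (SE 0.19, adjusted p = 3.82e-05). In each of these 4 genes tumors and controls did not overlap. The reference channel was saturated at Acaa1a on 2 of 3 control arrays and at Acaa1b and Hsd17b4 on 1 of 3. It was saturated at these genes on no Myc tumor array, so the sizes of these 3 falls are uncertain. The 3 probes of Acaa1a differed by -1.22, -0.51 and -1.27, and whether the probes of paralogs share signal was not tested.

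The other 5 peroxisomal enzymes did not pass the test. Ehhadh, the classical bifunctional enzyme, averaged -1.77 ± 0.24 (SD, n = 7) in Myc tumors and -0.97 ± 0.76 (SD, n = 3) in controls, with an adjusted p of 0.0558 from limma. Its controls were split, at -0.11 in control 1 and at -1.24 and -1.55 in the others. Crot, which moves medium chains onto carnitine for export, averaged -1.81 ± 0.31 in Myc tumors and -0.97 ± 0.57 in controls. Acox2, a peroxisomal oxidase, averaged -0.32 ± 0.92 against 0.00 ± 0.39. The thioesterases Acot3 and Acot4 averaged -0.71 ± 0.44 and -0.09 ± 0.59 in Myc tumors, against -1.53 ± 1.37 and 0.12 ± 1.22 in controls, where control 1 was the highest at both (0.04 and 1.44).

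Among the 18 mitochondrial genes 7 fell, 2 rose and 9 were not called. Of the carnitine shuttle, Cpt2, the inner membrane transferase, lay at -1.40 to -0.18 in Myc tumors (median -0.87), against -0.24, -0.09 and 0.30 in controls, a difference of -0.82 (SE 0.23, limma adjusted p = 0.00794). Cpt1a, the outer membrane transferase that controls entry, averaged -0.99 ± 0.38 against -0.77 ± 0.68, and the carrier Slc25a20 averaged -0.69 ± 0.39 against -0.53 ± 0.38. Neither passed the test at its brightest probe, and a second Cpt1a probe differed by -0.83, against -0.22 at the first.

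Of the acyl-CoA dehydrogenases, those for long chains fell. Acadl lay at -1.65 to -0.39 in Myc tumors (median -1.04), against -0.70, -0.33 and 0.69 in controls, a difference of -0.97 (SE 0.26, limma adjusted p = 0.00516). Acadvl lay at -0.68 to 0.06 (median -0.64), against 0.09, 0.15 and 0.25, a difference of -0.59 (SE 0.14, adjusted p = 0.00264) with no overlap. The Acadvl spot was saturated in both channels on 3 of 7 Myc tumor arrays and in the reference channel on 1 of 3 control arrays, so the size is uncertain. Without control 1, the highest control at Acadl, 11 of the genes fell rather than 14. The 10 called genes with the largest differences kept their calls there, so most of Cpt2, Acadl, Acadvl and Decr1 lost theirs. The medium-chain and short-chain enzymes did not pass the test, with Acadm at 0.49 ± 0.44 against 0.23 ± 0.43 and Acads at -0.44 ± 0.35 against -0.34 ± 0.33.

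The later steps of the mitochondrial spiral went both ways. Hadhb, the thiolase subunit of the trifunctional protein, rose: it lay at -0.02 to 0.95 in Myc tumors (median 0.52), against -0.80, -0.16 and 0.30 in controls, a difference of 0.73 (SE 0.23, limma adjusted p = 0.0185). Its partner subunit Hadha was not called, at 0.00 ± 0.54 against 0.05 ± 0.65. Acaa2, another mitochondrial thiolase, fell by 1.0 in log2 units (SE 0.37, adjusted p = 0.0363), but the tumors fell into a low set (-2.02, -2.01 and -1.33 in tumors 7, 4 and 6) and a set near the controls (-0.42 to 0.03), and the call was lost without any 1 of controls 2 and 3 or tumors 4, 6 and 7. Its spot was saturated in the sample channel on 3 of 7 Myc tumor and 1 of 3 control arrays and in the reference channel on 4 and 2, and from the sample channel alone the difference was -0.61 (adjusted p = 0.0561). Hadh and Echs1, the short-chain dehydrogenase and hydratase, averaged 0.01 ± 0.34 and -0.21 ± 0.38 in Myc tumors, against -0.06 ± 0.66 and -0.29 ± 0.53 in controls.

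Decr1, the mitochondrial dienoyl-CoA reductase, lay at -1.55 to -0.51 in Myc tumors (median -0.95), against -0.43, -0.42 and 0.35 in controls, and fell by 0.75 on the log2 scale with no overlap (adjusted p = 0.0126 from limma). Etfb, a subunit of the flavoprotein that takes electrons from the dehydrogenases, lay at -0.89 to 0.05 (median -0.41), against 0.03, 0.42 and 1.25, a difference of -0.98 (SE 0.23, adjusted p = 0.00215). It was saturated in the sample channel on 3 of 7 Myc tumor arrays and 1 of 3 control arrays, and from the sample channel alone the difference was -0.48 (adjusted p = 0.105). Without control 3 the call was also lost (-0.63, adjusted p = 0.053). Its partner Etfa and the dehydrogenase Etfdh, which passes the electrons to ubiquinone, were not called, at -0.81 ± 0.49 and -1.19 ± 0.46 in Myc tumors, against -0.99 ± 0.56 and -0.90 ± 0.30 in controls.

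Bdh1, which interconverts the ketone bodies acetoacetate and 3-hydroxybutyrate, lay at -1.48 to 0.20 in Myc tumors (median -0.78), against 0.11, 0.31 and 0.75 in controls, a difference of -1.21 (SE 0.24, limma adjusted p = 0.00049). A single tumor, replicate 3, lay within the controls, and a second Bdh1 probe differed by -0.71. Acot2, a mitochondrial thioesterase that releases free fatty acids from CoA, rose: it lay at -0.08 to 1.44 (median 0.94), against -0.20, -0.10 and 0.18, a difference of 0.91 (SE 0.22, adjusted p = 0.0022). All tumors except replicate 5 were above every control.

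The cytosolic thioesterase Acot1 lay at -0.03 to 1.73 in 6 Myc tumors and at -2.87 in tumor 5, against -1.67, -1.56 and 0.30 in controls. Over all 7 tumors it did not pass the test (1.52, SE 0.75, limma adjusted p = 0.122), and without the 3 arrays in doubt it did (2.09, adjusted p = 0.00392). Pdk4, a pyruvate dehydrogenase kinase, averaged 0.74 ± 0.78 in Myc tumors and -0.03 ± 0.18 in controls and was not called. Vnn1, a pantetheinase, averaged -3.13 ± 0.47 against -2.88 ± 2.18, with control 1 at -0.36 and controls 2 and 3 at -4.05 and -4.22. Crat and Ech1, which work in both compartments, averaged 0.63 ± 0.39 and -0.30 ± 0.31 in Myc tumors, against 0.30 ± 0.72 and -0.30 ± 0.51 in controls, and neither was called.

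**Figure D2:**
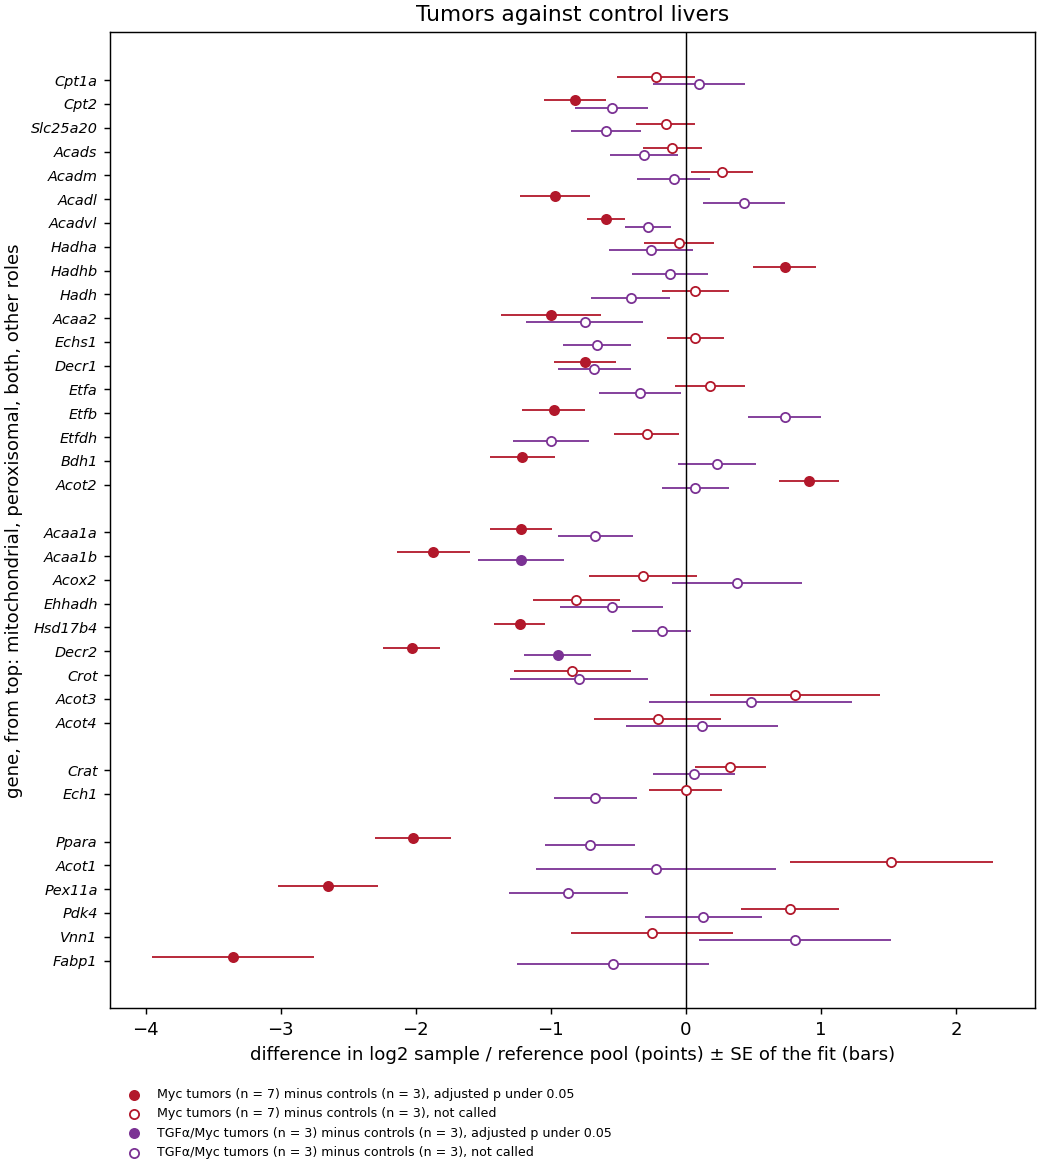
Log2 difference (horizontal axis, ± SE) of each of the 35 genes (lines, grouped by compartment) in Myc tumors (n = 7) and in TGFα/Myc tumors (n = 3), each against the 3 controls; filled points passed the test. In Myc tumors 14 filled points lie below 0 and 2 above, and in TGFα/Myc tumors 2 lie below.

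The scaling bears on these counts. With each array centred on its median and no loess, 3 genes fell and 1 rose, the median of the 35 was 0.04, and 69.5% of all called genes were higher, against 52.5% with loess. With scan day as a block 7 fell (Fabp1, Pex11a, Decr2, Acaa1a, Hsd17b4, Bdh1 and Acadvl) and none rose, but 1 day held both groups, with 1 Myc tumor and 1 control, so that block rests on 1 array of each. With scanner as a block, which rests on Myc tumor 1 against the controls, 8 fell (Decr2, Pex11a, Acaa1a, Ppara, Bdh1, Acadvl, Hsd17b4 and Acaa1b), 1 rose (Acot2), and Fabp1 was not called (-2.65, limma adjusted p = 0.0652). Pex11a and Decr2 kept their calls under each of 19 settings, with differences of -3.44 to -1.72 and -2.21 to -1.58. Markers moved in the same comparison: 9 of 12 hepatocyte markers fell (median -1.54), 4 of 8 endothelial markers fell, and 8 of 9 cell cycle genes rose (median 2.63). Their part in the falls of the fatty acid oxidation genes was not tested.

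Peroxisomal enzymes were set against mitochondrial ones on each array. The mean of the 9 peroxisomal genes was -1.18 ± 0.24 in Myc tumors (SD, n = 7) and -0.33 ± 0.44 in controls (n = 3), while the mean of the 18 mitochondrial genes was -0.44 ± 0.21 against -0.16 ± 0.31. The mitochondrial mean less the peroxisomal mean was 0.57 to 0.99 in the 7 Myc tumors, against -0.02 to 0.38 in the controls, so the groups did not overlap. In TGFα/Myc tumors it was 0.13 to 0.48, within or near the range of the controls. It was -0.01 to 0.32 after 4 weeks off Myc and 0.04 to 0.37 after 12 weeks. By medians, the mitochondrial genes exceeded the peroxisomal ones in the difference between Myc tumors and controls by 0.66. It was 0.59 to 0.79 over other background, scaling, filter, probe and array choices and with the sex score. It was not computed with scan day, scanner, slide or replicate number as blocks, with Myc tumors 3 and 4 averaged or with each array left out. On the scan day that both groups shared, the difference of the class means was 0.73 in Myc tumor 1 and 0.38 in control 2. Saturated spots stayed in these means, at Acaa1a, Acaa1b and Hsd17b4 on control arrays alone. Those of Acadvl, Acaa2 and Etfb were saturated on arrays of both Myc tumors and controls. A mean over named genes carries no test here.

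**Figure D3:**
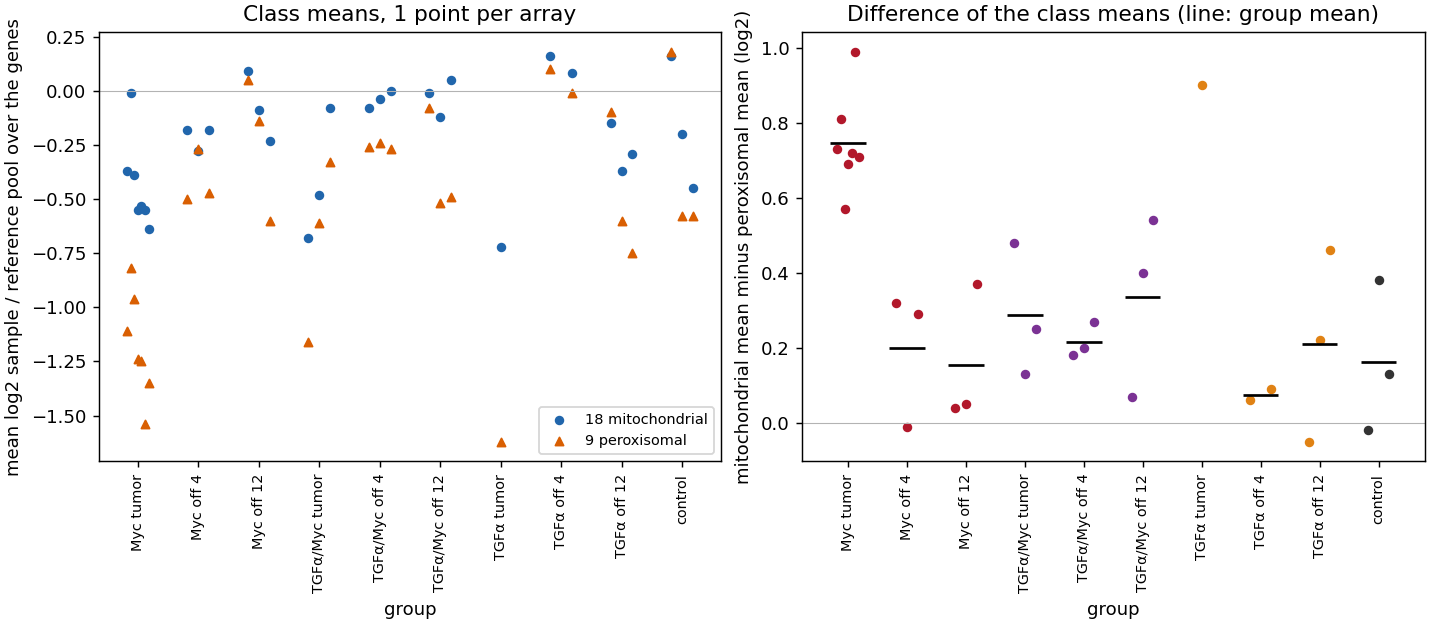
Mean log2 of sample over reference of the 18 mitochondrial and the 9 peroxisomal genes on each array, and the mitochondrial less the peroxisomal mean, by group (points are arrays). The difference is 0.57 to 0.99 in the 7 Myc tumors and 0.90 on the array labelled TGFα tumor 1, above the -0.02 to 0.38 of the 3 controls.

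Switching Myc off was followed at 4 and 12 weeks to ask whether these genes return. After 4 weeks 13 of the 35 were higher than in Myc tumors and 4 lower, where 13.7% of all genes were higher and 17% lower. After 12 weeks 14 were higher and 3 lower, with 14.5% and 16.1% of all genes. The member medians were 0.30 at 4 weeks and 0.61 at 12 weeks, and those of all genes 0.00 and 0.00. These comparisons share the tumors with the one above, so a gene that was low in the tumors is low in all of them, and each difference is given for its own size.

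Fabp1 averaged -2.59 ± 1.32 in Myc tumors at 0 weeks of doxycycline, 0.46 ± 0.21 at 4 weeks and -0.27 ± 0.78 at 12 weeks. The off livers exceeded the tumors by 3.05 (SE 0.60, limma adjusted p = 0.000479) and 2.32 (adjusted p = 0.00464) on the log2 scale, with no overlap at either time. Ppara stood at 0.05, 0.28 and -0.35 at 4 weeks and at 0.36, 0.90 and 0.88 at 12 weeks, 1.78 (SE 0.28, adjusted p = 5.34e-05) and 2.50 (SE 0.28, adjusted p = 1.15e-06) above the tumors. Pex11a stood at 0.65, 0.40 and -0.30 and then at 0.37, 0.56 and 1.35, higher by 1.77 (adjusted p = 0.000879) and 2.29 (adjusted p = 7.36e-05). Every off liver exceeded every Myc tumor at these 3 genes, as at 10.6% of all genes at 4 weeks and 10.1% at 12.

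The peroxisomal enzymes that fell in the tumors were higher again. Decr2 stood at 0.94, 0.86 and 0.03 at 4 weeks and at -0.06, -0.30 and 0.06 at 12 weeks, 2.19 (SE 0.21, limma adjusted p = 2.69e-07) and 1.48 (adjusted p = 1.7e-05) above the tumors. Acaa1b was higher by 1.88 (adjusted p = 2.55e-05) and 1.31 (adjusted p = 0.000803), and Hsd17b4 by 1.20 (adjusted p = 6.5e-05) and 0.80 (adjusted p = 0.00253). Acaa1a was higher by 0.85 and 0.76, and Ehhadh, which missed the threshold against the controls, by 0.92 (adjusted p = 0.0326) and 1.21 (adjusted p = 0.00621). In all 5 of 9 peroxisomal genes were higher at each time and none was lower. Ehhadh lost its call at 12 weeks without off liver 1 (0.94, limma adjusted p = 0.0708).

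Of the mitochondrial genes 5 were higher and 2 lower at 4 weeks, and 6 higher and 1 lower at 12. Acadl was higher by 1.22 (SE 0.26, limma adjusted p = 0.000891) at 4 weeks and 1.30 (adjusted p = 0.000513) at 12, and Bdh1 by 0.94 and 0.98. Decr1 was higher by 0.67 and 1.17, and Etfb by 0.78 and 0.61. Cpt2 passed at 4 weeks only (0.60, adjusted p = 0.0493), and Cpt1a and Echs1 at 12 weeks only (0.98, adjusted p = 0.0111, and 0.62, adjusted p = 0.0318). Without off liver 2 of 4 weeks, 9 of the 35 genes were higher rather than 13. The higher genes among the 10 largest differences kept their calls there, so most of Acaa1a, Ehhadh, Cpt2, Decr1 and Etfb lost theirs. Without off liver 1 of 12 weeks, 10 were higher rather than 14. Between 4 and 12 weeks off Myc none of the 35 genes passed the test in limma, 3 had an unadjusted p under 0.05 (Decr2, Acot4 and Ppara), and 0.00448% of all genes were called.

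The genes that were lower off Myc included those raised in the tumors. Acot2 stood at -0.19, -0.04 and -0.02 at 4 weeks, 0.95 below the tumor mean on the log2 scale (-0.95, limma adjusted p = 0.00174), and was lower by the same test at 12 weeks (-0.90, adjusted p = 0.00265). Acot1 was lower at both times (-2.26, SE 0.75, adjusted p = 0.0244, and -1.99, adjusted p = 0.0469), and these calls were lost without any 1 of the off livers of that time. The Acot1 call at 12 weeks was also lost without Myc tumor 1, 2, 3, 4 or 7 (limma adjusted p = 0.0702 to 0.0797). Hadhb (-0.91, adjusted p = 0.00463) and Crat (-0.73, adjusted p = 0.0332) were lower at 4 weeks, and Pdk4 at 12 weeks (-1.23, adjusted p = 0.0123, lost without off liver 1 or 2 at 0.0553 and 0.0769).

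**Figure D4:**
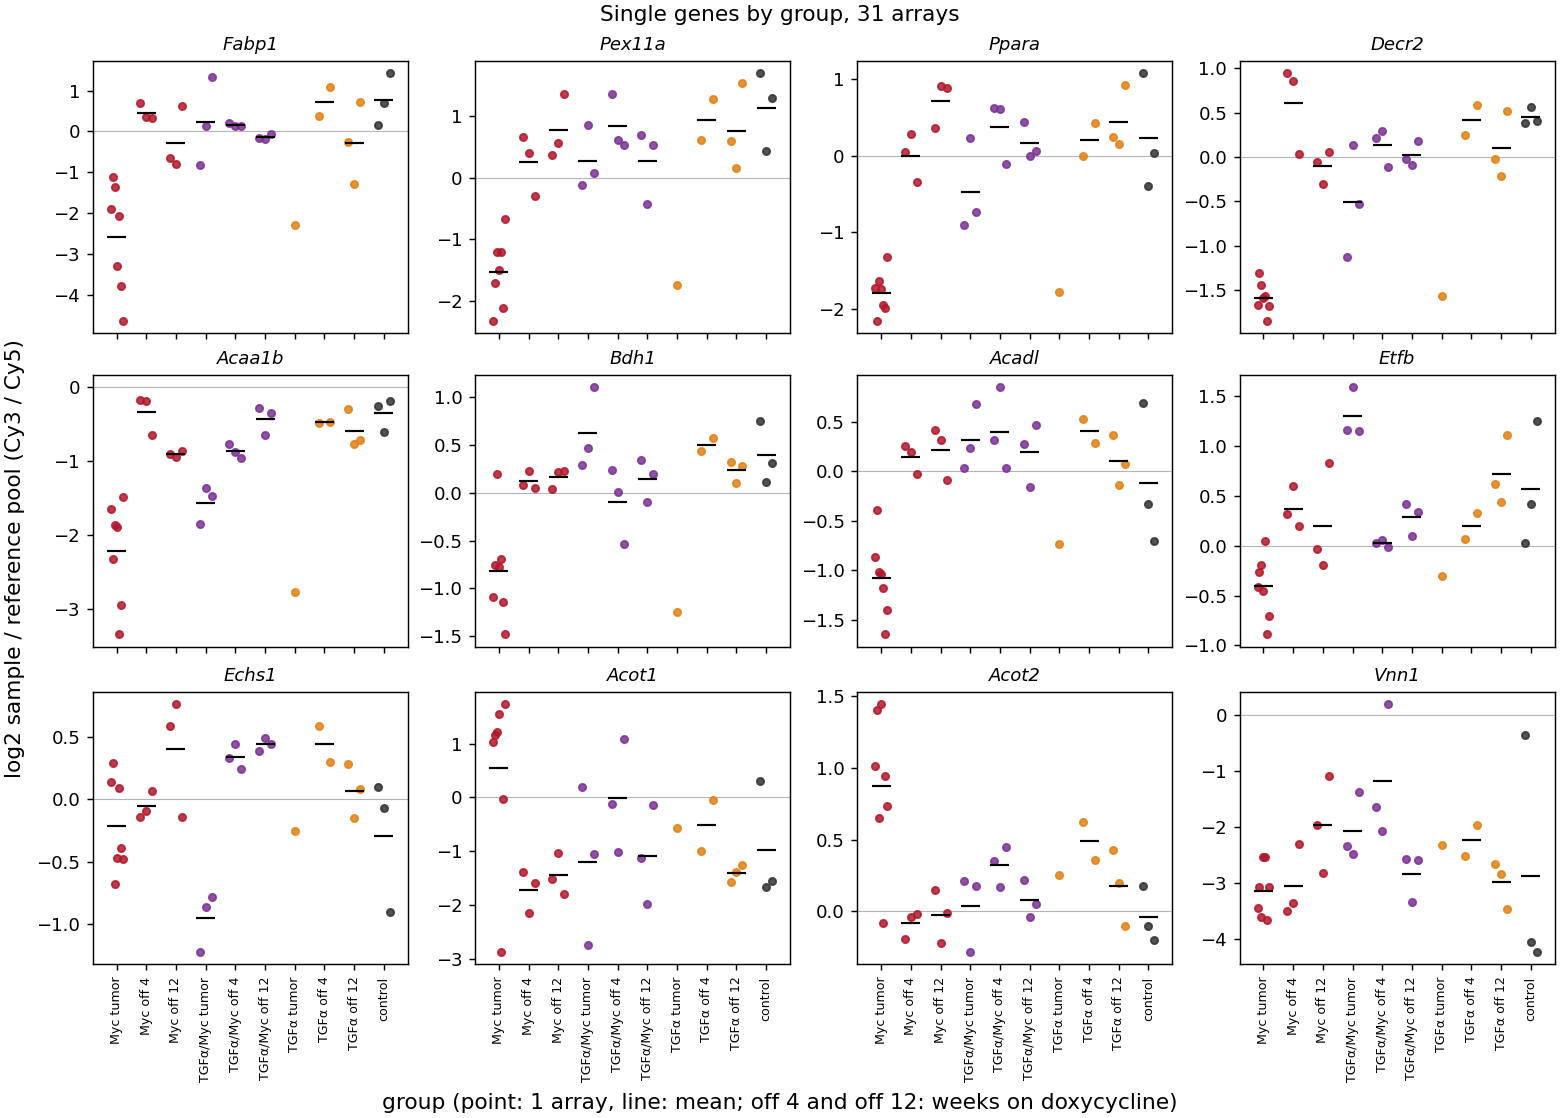
Value on each array (points, log2 of sample over reference) and group mean (line) for 12 of the genes in the Myc, TGFα/Myc and TGFα groups, in each at 0, 4 and 12 weeks of doxycycline, and in the controls. For Fabp1, Pex11a, Ppara and Decr2 the 7 Myc tumors lie below the livers off Myc and below the controls, while Acot2 lies above them in 6 of the 7 tumors.

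With median centring without loess 2 genes were higher and 1 lower at 4 weeks, and 4 higher and 0 lower at 12 weeks, and 24.6% and 63.5% of all called genes were higher, against 44.6% and 47.5% with loess. With scan day as a block none of the 35 was higher at 12 weeks, and no scan day held both groups. With scanner as a block, which again rests on Myc tumor 1, 7 genes were higher and 1 lower at 4 weeks and 5 higher at 12 weeks, among them Ppara, Pex11a, Decr2, Acaa1a and Bdh1 at both times. Hepatocyte markers were higher in 10 of 12 cases at 4 weeks (median 1.46) and in 8 at 12 weeks (median 1.64), and their level was 0.03 to 0.06 at 4 weeks and 0.04 to 0.43 at 12. Their part in these differences was not tested.

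In TGFα/Myc tumors the peroxisomal genes Acaa1b and Decr2 were lower than in controls. None of the 35 genes rose and 2 fell (limma), with 1.1% of all genes higher and 0.944% lower, and 10 had an unadjusted p under 0.05. With slide as a random block, at an estimated correlation of 0.436, neither gene was called (adjusted p = 0.152 for Acaa1b and 0.182 for Decr2). The median of the 35 was -0.31 and that of all genes 0.00. Acaa1b stood at -1.85, -1.47 and -1.37 in TGFα/Myc tumors, against -0.60, -0.25 and -0.19 in controls, a difference of -1.22 (SE 0.32, limma adjusted p = 0.048). Decr2 stood at -1.12, -0.53 and 0.14, against 0.38, 0.41 and 0.56, a difference of -0.95 (SE 0.25, adjusted p = 0.0431). Etfdh was next, at -2.14, -1.82 and -1.76 against -1.25, -0.74 and -0.71, with no overlap and a difference of -1.0 (adjusted p = 0.062), but a second Etfdh probe differed by 0.14. Acaa1a was not called at the probe used (-0.67), and its other probes, which were not tested, differed by -1.28 and -1.29.

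Leaving out TGFα/Myc tumor 1 gave adjusted p values of 0.272 for Acaa1b and 0.356 for Decr2. Acaa1b lost its call without any 1 of the 6 arrays and Decr2 without any 1 control or without tumor 1 or 3, and both calls were also lost with median centring, where the all-gene median moved to -0.11, the member median to -0.92 and 0 of 4 called genes were higher. Without the 3 arrays in doubt 6 genes fell, Acaa1b (-1.26), Ech1 (-1.14), Decr1 (-0.97), Crot (-1.46), Etfdh (-1.05) and Decr2 (-0.94). Of 12 hepatocyte markers none was called in these tumors (median -0.66), and 5 of 9 cell cycle genes rose.

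Set directly against Myc tumors, TGFα/Myc tumors had 8 of the 35 genes higher and 4 lower, where 11.5% of all genes were higher and 12.5% lower. Fabp1 stood at -0.82, 0.14 and 1.34 in TGFα/Myc tumors, against -4.64 to -1.11 in Myc tumors (median -2.08), a difference of 2.81 (SE 0.60, limma adjusted p = 0.0018). The Fabp1 spot was saturated in the reference channel on 3 of 3 TGFα/Myc and 4 of 7 Myc tumor arrays, and the difference was 1.68 to 3.10 over the other settings. Pex11a stood at -0.12, 0.84 and 0.08, against -2.31 to -0.67, a difference of 1.79 (SE 0.37, adjusted p = 0.00152). Ppara stood at -0.91, 0.23 and -0.74, against -2.15 to -1.32, a difference of 1.31 (SE 0.28, adjusted p = 0.00169). No TGFα/Myc tumor was as low as any Myc tumor at these 3 genes, a pattern seen in 6.31% of all genes.

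Etfb was the gene with the smallest p. It stood at 1.16, 1.59 and 1.15 in TGFα/Myc tumors, against -0.89 to 0.05 in Myc tumors, a difference of 1.71 (SE 0.23, 3.27-fold higher, limma adjusted p = 4.27e-05), but from the sample channel alone it was 0.49 (adjusted p = 0.121). Bdh1 was higher by 1.44 (SE 0.24, adjusted p = 0.000252), though its second probe differed by 0.24. Acadl was higher by 1.40 (adjusted p = 0.000551), Decr2 by 1.08 (adjusted p = 0.000861) and Hsd17b4 by 1.04 (adjusted p = 0.000516). Lower in TGFα/Myc than in Myc tumors were Hadhb (-0.85, adjusted p = 0.0106), Acot2 (-0.83, adjusted p = 0.00728), Echs1 (-0.74, adjusted p = 0.0147) and Etfdh (-0.71, adjusted p = 0.0308). Echs1, the crotonase that hydrates short enoyl-CoAs, stood at -1.22, -0.86 and -0.78, below all 7 Myc tumors (-0.68 to 0.29).

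With median centring 1 of the 12 calls was left, 15.7% of all called genes were higher, against 47.8% with loess, and the all-gene median moved to -0.19. With scan day as a block 1 call was left and 26.7% of called genes were higher, and Acadl (-0.02) and Ppara (-0.09) turned sign. With scanner as a block, which rests on Myc tumor 1, 5 genes were higher and 1 lower. Hepatocyte markers were higher in 6 of 12 cases (median 1.09) and endothelial markers in 6 of 8, and their part was not tested. Hadhb lost its call without TGFα/Myc tumor 1 or 2, and Acot2 without tumor 2.

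In the mice with both transgenes the mitochondrial genes Echs1, Etfdh and Decr1 were higher after switching off, and Etfb lower. After 4 weeks 4 genes were higher and 1 lower than in TGFα/Myc tumors, with 3.89% of all genes higher and 4.06% lower, and after 12 weeks again 4 and 1, with 2.15% and 2.35%. With slide as a random block 1 gene was higher at 12 weeks. Echs1, at -1.22, -0.86 and -0.78 in the tumors at 0 weeks, stood at 0.33, 0.44 and 0.24 at 4 weeks and at 0.39, 0.49 and 0.44 at 12 weeks. The off livers exceeded the tumors by 1.29 (SE 0.25, limma adjusted p = 0.00292) and 1.39 (adjusted p = 0.00271), with no overlap. Etfdh stood at -0.90, -0.76 and -0.53 at 4 weeks and at -0.88, -0.81 and -0.37 at 12 weeks, higher than in the tumors by 1.18 (adjusted p = 0.0103) and 1.22 (adjusted p = 0.0123), where its second probe differed by 0.39 at 4 weeks. The peroxisomal gene Acaa1a was not called at the probe used (-0.09 at 4 weeks and 0.50 at 12 weeks). Its other probes, which were not tested, differed by 1.13 and 0.88 at 4 weeks and by 1.68 and 1.47 at 12 weeks.

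Decr1 was higher by 1.14 (limma adjusted p = 0.00964) at 4 weeks and 1.01 (adjusted p = 0.0301) at 12 weeks. Etfa was called at 4 weeks (1.05, adjusted p = 0.0335) and Acaa1b at 12 weeks (1.14, adjusted p = 0.0416). Each of these calls was kept in only 1 of 6 fits with 1 array left out. The highest adjusted p, 0.184 and 0.223, came without TGFα/Myc tumor 1. Without that tumor Etfdh lost its calls as well (0.0698 and 0.0887), Decr1 lost its own without TGFα/Myc tumor 2 (0.0707 and 0.191), and at 12 weeks Echs1 alone kept its call without any 1 array. Of the 6 such fits, Etfdh passed in 5 at 4 weeks and 4 at 12 weeks, Decr1 in 4 and 2, and Etfb in 6 and 1. Etfb went the other way: it stood at 0.03, 0.06 and -0.01 after 4 weeks and at 0.42, 0.10 and 0.34 after 12 weeks, against 1.16, 1.59 and 1.15 in the tumors, lower by 1.27 (-1.27, adjusted p = 0.0054) and 1.01 (-1.01, adjusted p = 0.032). These Etfb calls were lost with the Feature Extraction log ratio (-0.54, adjusted p = 0.16, and -0.37, adjusted p = 0.372) and in the sample channel alone (-0.57, adjusted p = 0.2, and -0.19, adjusted p = 0.755), and the spot was saturated in each channel on 1 of 3 tumor arrays. With median centring no call was left at either time, Etfb turned to 0.18 at 12 weeks, the member medians were 1.38 and 1.27 with all-gene medians of 0.10 and 0.07, and 92.6% and 98% of called genes were higher, against 48.9% and 47.8%. Hepatocyte markers were higher in 2 of 12 cases at 4 weeks (median 0.56) and in 1 at 12 weeks, with 1 lower (median 0.55), and their part was not tested. Without the 3 arrays in doubt 7 genes were higher at 4 weeks (Echs1, Decr1, Ech1, Etfdh, Cpt1a, Ehhadh and Etfa) and 8 at 12 weeks. Between 4 and 12 weeks none of the 35 passed in limma, 4 had an unadjusted p under 0.05 (Acads, Acadvl, Acaa1a and Vnn1), and 0.345% of all genes were called higher and 0.506% lower.

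The change on switching off was then compared between the 2 genotypes, as off less tumor in TGFα/Myc mice minus off less tumor in Myc mice. It holds the difference between TGFα/Myc and Myc tumors given above, with opposite sign and from the same arrays. A gene that differed between the tumors therefore tends to differ here too, and these results are not independent of that comparison. At 4 weeks 9 of the 35 genes differed, 3 of them with a higher and 6 with a lower change in TGFα/Myc mice, where 7.04% and 6.74% of all genes did. At 12 weeks 5 differed, all with a lower change, where 1.45% of all genes did and 1.37% had a higher one. With slide as a random block, at an estimated correlation of 0.436, none of these 5 was called (adjusted p = 0.0501 to 0.105), and with scanner as a block Pex11a was. Etfb had the smallest p at both times, at -2.05 (SE 0.36, limma adjusted p = 0.000938) at 4 weeks and -1.63 (adjusted p = 0.0185) at 12. Etfb was higher off Myc than in Myc tumors and lower off both transgenes than in TGFα/Myc tumors. Its spot was saturated in the sample channel on 3 of 7 Myc tumor arrays and in the reference channel on 4 of 7. Over the other settings its change at 4 weeks was -2.2 to -0.38 (limma adjusted p up to 0.794), so its size is uncertain.

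Bdh1 (-1.66, limma adjusted p = 0.00562, and -1.46, adjusted p = 0.0364) and Hsd17b4 (-1.43, adjusted p = 0.00289, and -1.12, adjusted p = 0.0402) also differed at both times. Decr2 (-1.56, adjusted p = 0.00316) and Acadvl (-0.71, adjusted p = 0.0368) differed at 4 weeks, and Ppara (-1.86, adjusted p = 0.0218) and Pex11a (-2.29, adjusted p = 0.0322) at 12 weeks. Fabp1 differed at 4 weeks by -3.11 (adjusted p = 0.0272), but its spot was saturated in both channels on all 3 arrays of TGFα/Myc off 4 weeks. The reference channel was also saturated on 3 of 3 Myc off 4 weeks, 3 of 3 TGFα/Myc tumor and 4 of 7 Myc tumor arrays. The ratio in those livers, and so the size of this difference, is uncertain in either direction. The second Bdh1 probe was higher by 0.14 off both transgenes and by 0.52 off Myc at 4 weeks, and by 0.47 and 0.60 at 12 weeks. Changes were higher in TGFα/Myc mice for Hadhb (1.43, adjusted p = 0.0112), Acot2 (1.24, adjusted p = 0.0162) and Echs1 (1.13, adjusted p = 0.0258) at 4 weeks. Without replicate 3 of the livers off Myc for 12 weeks, without TGFα/Myc tumor 2 or without replicate 2 off both transgenes for 12 weeks, none of the 5 calls at 12 weeks was left, and at 4 weeks Acadvl, Fabp1, Echs1 and Acot2 each lost their call without 1 array or another. With median centring none of the 35 differed at either time, and all 6 and all 4 genes then called on the array had higher changes (100%, against 51.1% and 48.4% with loess).

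**Figure D5:**
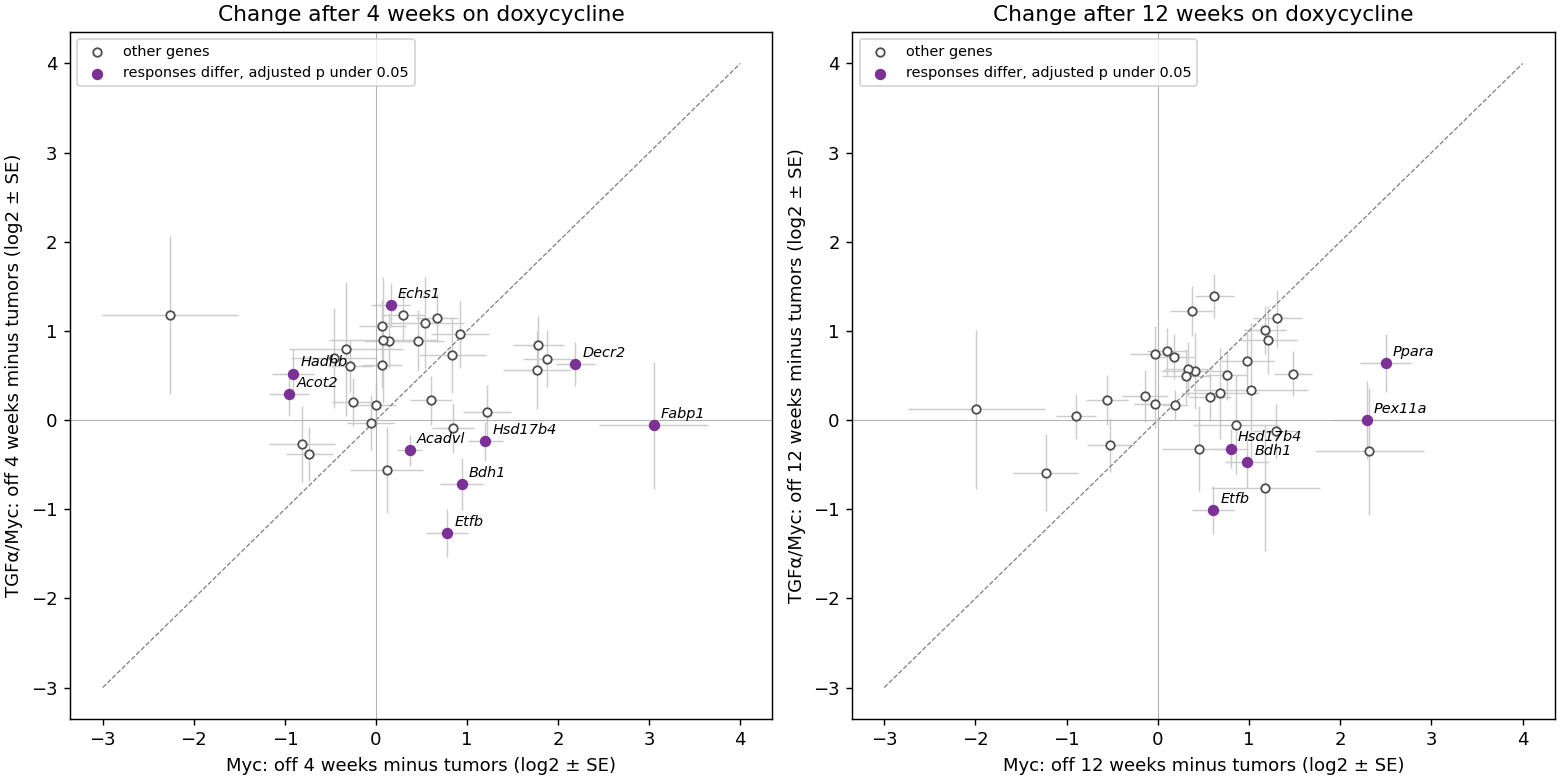
Log2 difference between off livers and tumors in Myc mice (horizontal axis) and in TGFα/Myc mice (vertical axis) for the 35 genes, at 4 and 12 weeks; labelled genes are those whose change differed between the genotypes by the test. Etfb, whose spot was saturated on part of the arrays, lies at 0.78 and -1.27 at 4 weeks, and Decr2, Hsd17b4 and Bdh1 lie to the right of the line of equal change.

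Livers with the transgenes off were also set against the controls. None of the 35 genes passed the test in limma after 4 or 12 weeks off Myc, with 0 and 5 at an unadjusted p under 0.05, and 0.00895% and 0.148% of all genes were called. After 4 weeks off both transgenes 1 gene fell, with 2.49% of all genes lower and 2.86% higher. That gene was Acadvl, the very long-chain dehydrogenase, at -0.35, -0.52 and -0.50, against 0.09, 0.15 and 0.25 in controls (-0.62, SE 0.17, adjusted p = 0.0352), a call that ended under 6 other settings and without any 1 of the controls or of these livers. After 12 weeks none passed, 3 had an unadjusted p under 0.05 and 0.0179% of all genes were called. The same held after 4 weeks off TGFα (2 arrays, 0.855% of all genes called, 3 members with an unadjusted p under 0.05) and after 12 weeks off TGFα (0.094%, 1 member).

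A missed threshold with 3 arrays a group does not show equal levels, and the values of 3 genes, none of which passed, are given as examples. Hsd17b4 averaged -0.61 ± 0.14 after 12 weeks off Myc, -0.69 ± 0.22 after 12 weeks off both transgenes and -0.78 ± 0.22 after 12 weeks off TGFα, against -0.19 ± 0.16 in controls, and all these livers lay below all controls, as at 10.8%, 14.1% and 8.35% of all genes. Decr2 averaged -0.10 ± 0.18, 0.02 ± 0.14 and 0.10 ± 0.38 in the same order, against 0.45 ± 0.09. Echs1 averaged 0.44 ± 0.05 after 12 weeks off both transgenes, against -0.29 ± 0.53 in controls (0.73, limma adjusted p = 0.33).

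The TGFα tumors allowed no comparison. The array labelled TGFα tumor 1 stood at -2.29 for Fabp1, -1.74 for Pex11a, -1.78 for Ppara, -1.56 for Decr2 and -2.77 for Acaa1b, each within the range of the 7 Myc tumors, and its Myc probes were raised as said. Of all 35 genes 25 lay within that range, 9 below it and 1 above it, and 14 lay within the range of the 3 controls. Those outside the Myc tumor range were Cpt2, Slc25a20, Acadvl, Hadhb, Etfdh, Ehhadh, Acot3, Crat, Ech1 and Vnn1. The other TGFα tumors, and replicate 1 of the livers off TGFα for 4 weeks, lay on slide 5. There the hepatocyte markers had a median signal percentile of 50.7 to 69.5 in the reference channel, against 98.7 to 99.3 on the other arrays, and the intestine markers one of 99.4 to 99.6, against 6.55 to 49.2. The 35 genes had one of 82.9 to 83.4, against 93.7 to 96.2, with the peroxisomal genes at 75.5 to 77.3 and the mitochondrial genes at 93.0 to 93.4. A ratio on this slide therefore has another denominator. The sample channel went against the liver labels too: hepatocyte markers had a median percentile of 79.8 and 56.3 in TGFα tumors 2 and 3 and 58.7 in the off liver, against 93.3 to 99.7 on the other arrays, and intestine markers 97.8, 95.4 and 99.2, against 5.68 to 54.2.

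The sample channel alone can be set beside the mean of the controls, as a description. Acox2 stood at -5.46, -6.08 and -4.74 log2 units relative to the controls on these 3 arrays, while the array labelled TGFα tumor 1 stood at 0.30. Fabp1 stood at -2.26 and -7.60 in TGFα tumors 2 and 3 and at -5.89 in TGFα off 4 weeks replicate 1, against -0.05 and 0.17 in off 4 weeks replicates 2 and 3. Ppara stood at -4.74, -4.68 and -2.60 on slide 5, and Cpt1a at -0.06, -0.49 and 0.56. Acox2, Fabp1 and Ppara were thus far below the controls on all 3 arrays, where hepatocyte markers were low and intestine markers high, and the part of these markers was not tested.

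The rest of the pathway was followed in 56 other genes of ketone body synthesis, mitochondrial and peroxisomal oxidation and PPARα regulation, all measured. They too were chosen with earlier results of these data known, so their counts are no independent test. In Myc tumors 25 fell and 6 rose (limma, median -0.66), where 16.5% of all genes fell and 18.3% rose: 12 of 21 peroxisomal genes fell and none rose, 5 of 11 mitochondrial genes fell and 2 rose, 3 of 5 ketone body genes fell and 1 rose, and 5 of 19 genes of PPARα regulation fell and 3 rose. Among those with the smallest p values were the oxidase gene Acox3 (-1.24, limma adjusted p = 7.37e-07), Cat, which encodes catalase (-2.35, adjusted p = 2.69e-06), and the thioesterase gene Acot12 (-1.41, adjusted p = 1.56e-05). In TGFα/Myc tumors 6 fell and none rose (0.944% and 1.1% of all genes), 5 of them peroxisomal, with Acox3 at -0.83, Cat at -1.65 and the peroxisomal transporter gene Abcd3 at -1.53.

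Part of these genes were higher after switching off. After 4 weeks off Myc 24 of the 56 were higher and 5 lower than in Myc tumors (13.7% and 17% of all genes), with Cat at 2.39, Acot12 at 1.33 and Acox3 at 1.08. After 12 weeks 28 were higher and 5 lower (14.5% and 16.1%). After 4 weeks off both transgenes 8 were higher and 1 lower than in TGFα/Myc tumors (3.89% and 4.06%), with Cat at 1.66, Acadsb, a dehydrogenase gene for short branched chains, at 1.43 and Abcd3 at 1.41. After 12 weeks 10 were higher and 1 lower (2.15% and 2.35%), with Cat at 1.89 and the hormone gene Fgf21 lower (-3.02).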

How the data were processed

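RNA of 34 mouse livers and liver tumors was amplified, labelled with Cy3 and hybridised with a Cy5 reference pool, per the labels' protocols. The deposited scanner files hold spot intensity (mean, background and processed signals) and, per the file headers, a log10 ratio of red over green from Agilent Feature Extraction. The deposited series matrix holds log2 values. Their correlation with that ratio ran from 0.329 to 0.927 over arrays, column medians reached 0.45 in size, and the steps behind them are not given in the sources used here. Per the submitters' processing notes the authors used limma, with its version not stated.

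Mean intensities were background-corrected by normexp (offset 50) and normalised by loess within arrays, control spots at weight 0, and log2 of Cy3 over Cy5 was taken with no scaling between arrays. Outlier spots (0.0905%) were set missing and spots of a probe averaged. Probes were kept where Cy3 stood well above background on 3 or more of 34 arrays (32773 of 41174), and each gene was read at its brightest kept probe (22341 genes). Probe names came from the annotation shared by 28 array files, and all 35 members matched RefSeq. The members had 45 probes, and 8 members more than 1 kept probe. Their mean log2 intensity ran from 7.69 to 15.7. Depth has no meaning for arrays, and their number limits the precision.

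limma 3.58.1 in R 4.3.3 (with statmod 1.5.0) fitted 1 coefficient per group on 31 arrays with eBayes. There were 17 comparisons, with p adjusted by Benjamini-Hochberg over all genes and a threshold of 0.05. Slide 5 was left out of the tests because its reference channel differs. The procedure was tested on simulated data. Alternatives were other background, scaling, filter, probe and array choices, scan day, slide and replicate number as blocks, and each array left out. A sex score as covariate, scanner as a block and the fit without 3 arrays in doubt were chosen after the data were seen.

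Members, pathway genes and marker lists were chosen with earlier results of these data known. Every member is named with its values. Full statistics go to at most 10 called members with the largest difference in a comparison. Of the 56 other pathway genes the counts and up to 4 with the smallest p are given, less some that are not reported here.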

Additional observations from a re-analysis of the deposited data

Results flagged for a closer look

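In 2 of the 35 genes 1 Myc tumor stood far from the other 6, where chance alone would pick out about 1 in 20. Ech1, a dienoyl-CoA isomerase, was 0.34 in Myc tumor 2 and -0.70 to -0.26 in the others, a gap of 0.573 of the range. Acot1 was -2.87 in Myc tumor 5 and -0.03 to 1.73 in the others, a gap of 0.617 of the range.

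The change on switching off differed between TGFα/Myc and Myc mice, by limma's test of the difference itself, for 9 genes at 4 weeks. These changes share their tumors with the comparison of TGFα/Myc with Myc tumors and are not independent of it. Of these Etfb (-2.05, saturated on part of the arrays), Bdh1 (-1.66), Decr2 (-1.56), Hsd17b4 (-1.43), Acadvl (-0.71) and Fabp1 (-3.11, saturated off both transgenes) had the lower change in TGFα/Myc mice, and Hadhb (1.43), Acot2 (1.24) and Echs1 (1.13) the higher one. At 12 weeks the change was lower in TGFα/Myc mice for Etfb (-1.63), Bdh1 (-1.46), Hsd17b4 (-1.12), Ppara (-1.86) and Pex11a (-2.29), and none of these 5 was called with slide as a random block (adjusted p = 0.0501 to 0.105) or scan day as a block.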

How the results depend on the processing

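Counts of called genes are lower ones for tumors against controls (14 for Myc, 2 for TGFα/Myc), higher ones for off livers against tumors (13 and 14 after 4 and 12 weeks off Myc, 4 and 4 off both transgenes), and both directions for TGFα/Myc against Myc tumors (12), for off livers against controls and for the changes compared between genotypes (9 at 4 weeks, 5 at 12). The class shift is the median difference of the mitochondrial genes less that of the peroxisomal genes. Median centring without loess gave 3 and 0 for the tumors against controls, 1 for TGFα/Myc against Myc tumors, 2 and 4 off Myc, 0 and 0 off both transgenes, 0 for TGFα/Myc off 4 weeks against controls and 0 and 0 for the changes, with class shifts of -0.46 between tumors and 0.76 between changes at 4 weeks. It turned Etfb off both transgenes for 12 weeks to 0.18, and the changes of Hsd17b4 to 0.19 and Acadvl to 0.90 at 4 weeks. The sample channel alone gave 4 for TGFα/Myc tumors against controls, 6 for TGFα/Myc against Myc tumors, 9 off Myc for 12 weeks, 0 for TGFα/Myc and 1 for TGFα off 4 weeks against controls, and 4 and 3 for the changes. Its class shifts were -0.91 off Myc for 4 weeks and 0.63 for TGFα off 4 weeks against controls. It turned Acot2 between the tumors to 0.11 and the change of Acadvl at 4 weeks to 0.07. Scan day as a block gave 7 and 5 for tumors against controls, 1 between tumors, 0 off Myc and 1 off both transgenes for 12 weeks, and 0 for the changes at 12 weeks. It turned Acadl and Ppara between tumors to -0.02 and -0.09, and it could not be fitted for TGFα/Myc off 4 weeks, TGFα off 4 weeks, 12 against 4 weeks off both transgenes or the changes at 4 weeks. Scanner as a block, added after the data were seen, gave 8 for Myc tumors against controls, 6 between tumors, 7 and 5 off Myc, and 1 for the changes at 12 weeks.

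TGFα/Myc tumors against controls gave 4 without background subtraction and from the series matrix, 7 from the Feature Extraction log ratio, 0 without a filter, with all 34 arrays, with only the groups compared and with slide as a random block (within-slide correlation 0.436), 1 with Myc tumors 3 and 4 averaged or the sex score, and 6 without the 3 arrays in doubt. Off both transgenes, 4 weeks gave 9 from the Feature Extraction log ratio, 0 with only the groups compared and 7 without the arrays in doubt. There 12 weeks gave 8 from the Feature Extraction log ratio, 2 with the mean of probes, 2 with all 34 arrays, 1 with only the groups compared, 1 with slide as a random block and 8 without the arrays in doubt. TGFα/Myc off 4 weeks against controls gave 0 from the Feature Extraction log ratio, from the series matrix, with only the groups compared and with slide as a random block. With only the groups compared, TGFα/Myc against Myc tumors gave 7, 12 against 4 weeks off both transgenes gave 1 and the changes at 12 weeks gave 1. Those changes gave 2 with all 34 arrays, 0 with slide as a random block and 3 with the sex score. Class shifts moved without background subtraction to 0.59 (changes at 12 weeks), with the Feature Extraction log ratio to -0.01 (off both transgenes for 4 weeks), with the mean of probes to -0.35 (between tumors), 0.03 (TGFα off 4 weeks against controls) and 0.65 (changes at 4 weeks), and without the arrays in doubt to 1.53 (changes at 4 weeks). The cause of these differences was not tested.

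Leaving out 1 array gave 11 to 15 for Myc and 0 to 2 for TGFα/Myc tumors against controls, 8 to 16 between tumors, 9 to 14 and 10 to 15 off Myc, 2 to 8 and 1 to 8 off both transgenes, and 6 to 12 and 0 to 8 for the changes. Against controls it gave 0 to 2 for TGFα/Myc off 4 weeks, 0 to 1 for Myc off 12 and TGFα off 4 weeks, and 0 to 0 elsewhere, as between 12 and 4 weeks. Under the replicate block TGFα/Myc tumors against controls gave 1 lower gene and Myc tumors against controls 10 lower and 3 higher. Same-numbered arrays of different groups had a median correlation of 0.02 (100 pairs) and other pairs one of -0.01, and same-number pairs ran down to -0.40, so the numbers were not taken to pair the samples. As a hint from the data, 18 of 30 arrays correlated best with an array of their own number. Of 67 results for single genes, 11 kept their direction and call under median centring, 31 in the sample channel alone and 67 under Aquantile scaling.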
